A study of Mus musculus with 16 samples.

Results

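Keratins are the intermediate filament proteins of epithelial cells, and this account covers the expression of the keratin gene family in medullary thymic epithelial cells of the mouse. Members were the protein-coding genes whose symbol is Krt followed by a number, which gave 53 of the 43432 genes in the count files. Of these, 50 had at least 10 reads in at least 4 libraries and are described here. Krt40, Krt31 and Krt88 fell short, with 3, 2 and 0 libraries at 10 reads, and are named only. Since each population had 4 libraries, a keratin detected in a single population could meet that minimum and would then have to differ between populations, so the counts below describe the 50 and not the whole family.

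The cells came from Aire-CreERT2 Ai14 mice on C57BL6, in which tamoxifen makes cells that express Aire at that time, and their descendants, permanently positive for the red fluorescent protein RFP. Mice of both sexes aged 5 to 6 weeks were all given 2 mg of tamoxifen, and their thymi were collected after 7 days, with 12 thymi pooled per replicate. Viable EPCAM+ cells without CD45 were sorted into 4 populations of 4 pools each, by RFP and by high or low surface MHC class II, here called RFP+ and RFP- MHCIIlo and RFP+ and RFP- MHCIIhi. RFP- cells are not free of an Aire history, because cells whose Aire expression did not coincide with the tamoxifen, or whose reporter did not recombine, carry no label. All groups carry Cre and reporter and were given tamoxifen. The study asks how cells that once expressed Aire differ from other medullary cells, at either level of MHC class II.

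Each keratin filament is built from pairs of one acidic (type I) and one basic (type II) protein, and each epithelium uses its own pairs. Krt8 with Krt18 serves simple epithelia, Krt5 with Krt14 the dividing basal layer of stratified epithelia, Krt1 with Krt10 the layers above it, and hair and nail have a large set of their own. The thymic medulla is known for cells that express genes of many peripheral tissues, in part under Aire, and for cells that come to resemble differentiated keratinocytes. By textbook tissue the 50 keratins comprised 6 of simple epithelia, 3 basal, 13 suprabasal, 21 of hair and 7 others. The suprabasal class holds 5 epidermal, 4 mucosal and 4 wound-inducible keratins, and the hair class 13 of the hair shaft and 8 of the root sheath. Of all 53, 27 type I genes lie on chromosome 11, and 25 type II genes with the type I gene Krt18 on chromosome 15.

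Promoter letters are shown for 8 keratins that represent the level patterns described below. Each line gives the 80 bases that precede the gene's start, 5′ to 3′, from RefSeq on GRCm38.p6. All 8 genes lie on the minus strand, and capitals mark TATAAA, the letters of a TATA box, read on the gene strand.
Krt5, chr15:101712906-101712985: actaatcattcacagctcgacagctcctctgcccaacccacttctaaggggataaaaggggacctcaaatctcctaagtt
Krt10, chr11:99389365-99389444: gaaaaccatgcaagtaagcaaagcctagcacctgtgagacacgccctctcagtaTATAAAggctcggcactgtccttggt
Krt77, chr15:101869706-101869785: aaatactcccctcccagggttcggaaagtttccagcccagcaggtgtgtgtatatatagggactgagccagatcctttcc
Krt76, chr15:101892921-101893000: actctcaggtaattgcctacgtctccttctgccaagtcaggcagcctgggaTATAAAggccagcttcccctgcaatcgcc
Krt12, chr11:99422260-99422339: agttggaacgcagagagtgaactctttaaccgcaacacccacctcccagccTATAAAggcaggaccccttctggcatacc
Krt9, chr11:100193247-100193326: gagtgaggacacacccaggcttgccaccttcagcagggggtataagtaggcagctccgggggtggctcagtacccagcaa
Krt71, chr15:101743098-101743177: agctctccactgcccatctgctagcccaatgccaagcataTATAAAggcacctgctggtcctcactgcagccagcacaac
Krt25, chr11:99322952-99323031: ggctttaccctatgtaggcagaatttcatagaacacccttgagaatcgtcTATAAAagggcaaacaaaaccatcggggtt
Of the 8, TATAAA began at -26 in Krt10, at -29 in Krt76 and Krt12, at -30 in Krt25 and at -40 in Krt71, counted from the start. These exact letters were not in the lines of Krt5, Krt77 and Krt9, and variants of a TATA box were not searched for. In GENCODE M21 the first exon of Krt71 begins inside its line. RefSeq promoters were matched for 34 of the 50 keratins, in 35 entries. TATAAA within the 40 bases before the start, on the gene strand, was held by 12 of these 35 (34.3%) and by 758 of all 32851 promoters in the table (2.31%). By class it was in 8 of 15 hair entries, 3 of 8 suprabasal, 1 of 5 simple, 0 of 2 basal and 0 of 5 others. In 250 bases and on either strand it was in 42.9% of the keratin entries and 12.4% of all. TGANTCA, the letters of an AP-1 site, was in 5.71% and 6.75% in that window. The 2 keratin entries with it were both of Krt13.

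Libraries held 7.93 to 19.46 M reads (median 13.28 M), of which mitochondrial reads made up 40.7 to 47.7% in RFP- MHCIIlo and 30.5 to 40.1% in the other populations. RFP+ MHCIIlo pools came from 19400 to 20500 sorted cells and all other pools from at least 80500, and RFP+ MHCIIlo replicates 1 and 4 were treated, from earlier results of these data, as libraries that may stand apart. Levels below are CPM, read counts scaled to the library size with TMM factors, or CPM per kb of exon where genes are compared with each other. Epcam was at 322 to 621 CPM in all libraries. The sorted marker H2-Aa was at 4569 to 5772 CPM in MHCIIhi and 700.2 to 1695 CPM in MHCIIlo libraries. Aire was at 916 to 1041 CPM in RFP- MHCIIhi, 543 to 622 in RFP+ MHCIIhi and no higher than 69.0 in MHCIIlo libraries. RNA of marker genes of other cell types was found in every population, and no listed gene was at 0 in all libraries. Myeloid markers (7 of 7) summed to 635 to 648 CPM in RFP+ MHCIIhi and 108 to 142 CPM in RFP- MHCIIlo, with the remaining populations between. Most of this sum was Lyz2 (mean 526 CPM in RFP+ MHCIIhi). By mean level Adgre1, C1qa and C1qb were highest in RFP- MHCIIhi and Itgam in RFP+ MHCIIlo. In bulk samples, fewer cells of a type and less RNA per cell cannot be told apart.

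Per kb of exon the simple keratin Krt18 was the most abundant in 3 of the 4 populations, at 437 ± 68.0 CPM per kb in RFP- MHCIIhi, 459.9 ± 33.4 in RFP+ MHCIIhi and 668 ± 86.2 in RFP+ MHCIIlo (mean ± SD, n = 4 throughout). In RFP- MHCIIlo the basal keratin Krt5 came first, at 611 ± 86.6 CPM per kb, ahead of Krt18 at 509.9 ± 39.5. Summed over the family, keratin CPM were 2119 ± 186 in RFP- MHCIIhi, 2945 ± 221 in RFP+ MHCIIhi, 3828 ± 298 in RFP- MHCIIlo and 4388 ± 490.4 in RFP+ MHCIIlo. The basal share of keratin CPM per kb was 43.6 ± 3.17% in RFP- MHCIIlo and between 12.6 ± 1.19% and 13.2 ± 1.06% in the other populations. Suprabasal keratins made up 15.4 ± 1.32% in RFP- MHCIIlo, 25.9 ± 1.28% in RFP- MHCIIhi, 30.8 ± 0.611% in RFP+ MHCIIhi and 33.8 ± 1.98% in RFP+ MHCIIlo. In each population the most abundant of this class was the wound-inducible Krt17. Krt17 was at 192, 238, 262 and 317 CPM per kb in RFP- and RFP+ MHCIIhi and then RFP- and RFP+ MHCIIlo. Krt10 was at 5.04, 61.6, 12.5 and 151 CPM per kb in the same order. The class share is thus not a measure of Krt1 and Krt10 alone. Hair keratins, though 21 genes, held 4.28 ± 0.509% and 3.64 ± 0.0777% in the RFP- and RFP+ MHCIIhi cells, 0.309 ± 0.0488% in RFP- MHCIIlo and 1.19 ± 0.114% in RFP+ MHCIIlo. Simple keratins held 40.2 ± 4.09% to 54.7 ± 2.54%. The ratio of type II to type I, in summed CPM per kb, was 0.653 ± 0.0384 in RFP- MHCIIlo and 0.357 ± 0.0289, 0.396 ± 0.0137 and 0.401 ± 0.0156 in RFP- MHCIIhi, RFP+ MHCIIhi and RFP+ MHCIIlo. RFP- MHCIIlo cells thus stood apart from the other populations in their basal share and in this ratio, with no overlap between libraries. They also stood apart in the mitochondrial share of reads given above, and its part in these values was not tested.

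**Figure D1:**
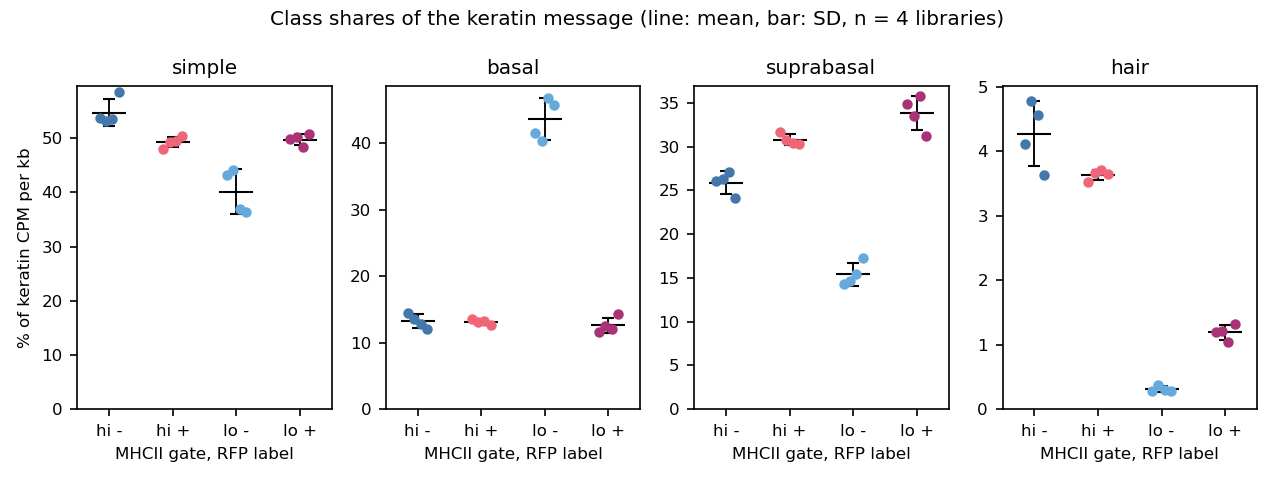
Shares of keratin CPM per kb by keratin class, in percent of the family's sum (y axis), for the 4 populations (x axis). Lines are means, error bars SD and points the 4 libraries. The basal class reaches 43.6% in RFP- MHCIIlo and lies near 13% elsewhere, and the hair class is above 3% in the MHCIIhi populations only.

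**Figure D2:**
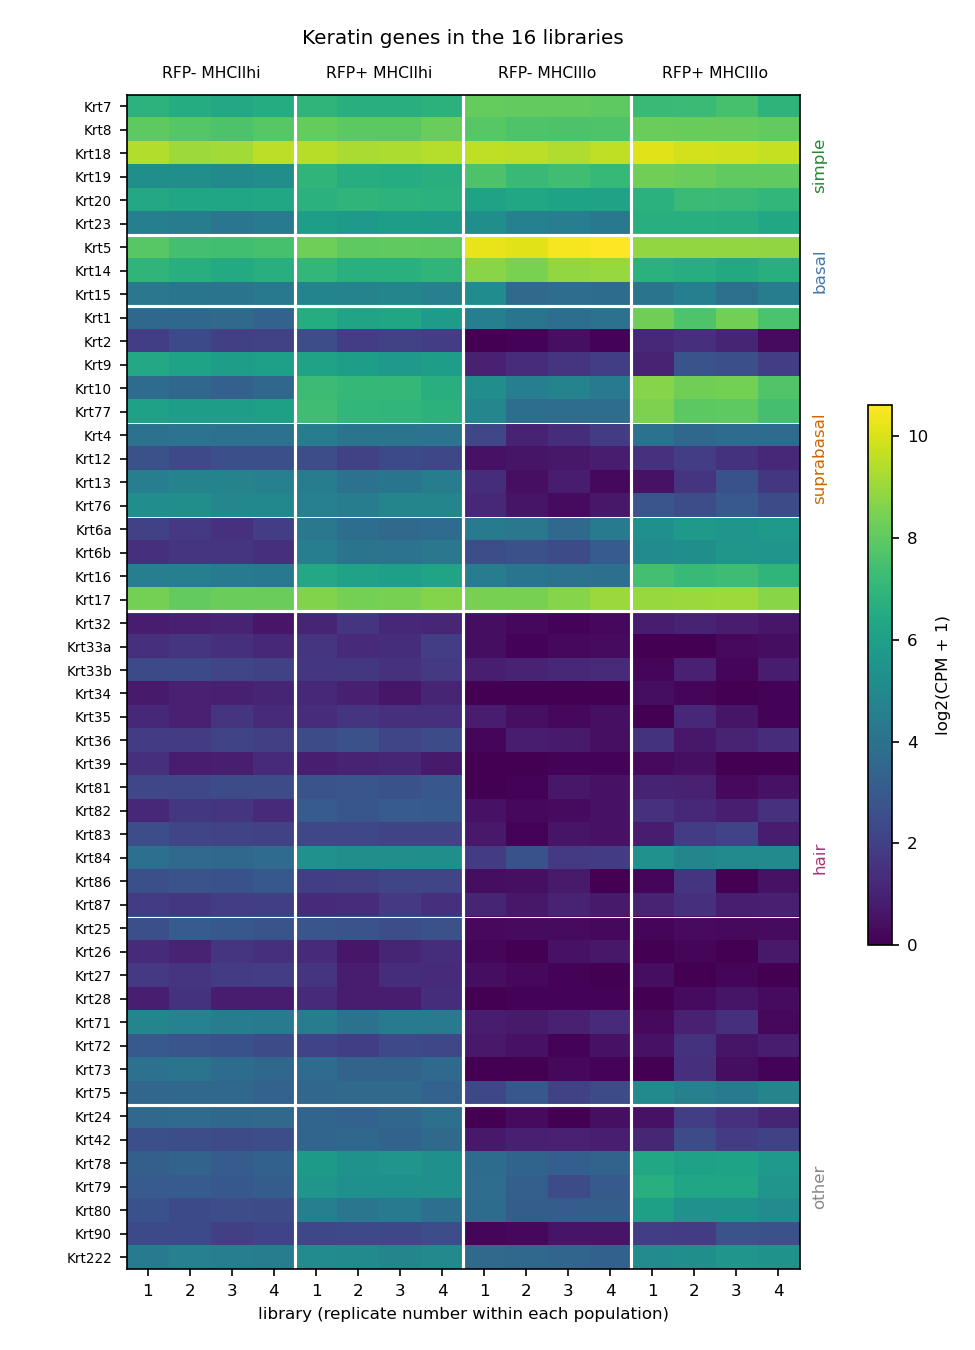
Level of each of the 50 described keratins (rows, by class) in each of the 16 libraries (columns, by population). Colour is CPM on a log2 scale, after a constant was added. Most hair keratins are low throughout and higher in the MHCIIhi than in the MHCIIlo populations. Krt5 and Krt14 are highest in RFP- MHCIIlo, and Krt1, Krt10, Krt77 and the inducible keratins in RFP+ MHCIIlo.

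Among called keratins, more were higher than lower in RFP+ against RFP- cells of either gate, and more were lower than higher in MHCIIlo against MHCIIhi cells of either label. Between RFP+ and RFP- MHCIIlo cells 33 of 50 keratins were higher and 4 lower in RFP+ (background over all 19617 genes tested: 28.9% higher, 22.7% lower and 51.6% either). Between RFP+ and RFP- MHCIIhi cells 20 were higher and 3 lower in RFP+ (background 23.8%, 21.2% and 45.0%), so that the 23 of 50 called in either direction were near the background. Among RFP- cells 11 were higher and 33 lower in MHCIIlo than in MHCIIhi (background 33.5%, 35.6% and 69.1%), and among RFP+ cells 18 were higher and 26 lower (background 27.5%, 28.1% and 55.6%). For 18 keratins the RFP difference was more positive in MHCIIlo than in MHCIIhi cells and for 5 more negative (background 17.5%, 16.6% and 34.1%). Calls are edgeR quasi-likelihood tests with Benjamini-Hochberg adjusted p under 0.05 over all genes. The p-values reflect pool-to-pool spread only. The comparisons share populations, so their counts are not independent of each other.

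On the log2 scale the median difference over the 50 keratins was 1.73 for RFP+ against RFP- MHCIIlo (all genes 0.07; 1.59 with Krt34, which had 0 reads in RFP- MHCIIlo, set at its lower bound). It was 0.19 for RFP+ against RFP- MHCIIhi (all genes -0.02), -2.01 for RFP- MHCIIlo against RFP- MHCIIhi (all genes -0.00; unchanged at that bound) and -0.79 for RFP+ MHCIIlo against RFP+ MHCIIhi (all genes 0.01). By mean level, 16 keratins were highest in RFP- MHCIIhi, 14 in RFP+ MHCIIhi, 3 in RFP- MHCIIlo and 17 in RFP+ MHCIIlo. Without RFP+ MHCIIlo replicates 1 and 4, RFP+ against RFP- MHCIIlo gave 32 higher and 3 lower, RFP+ MHCIIlo against RFP+ MHCIIhi 18 and 23, and the difference of RFP differences 21 and 5. The count of 3 lower in RFP+ than RFP- MHCIIhi cells was unstable: it was 0 without RFP- MHCIIhi replicate 1 or 2, 1 without RFP+ MHCIIhi replicate 1, 2 or 3, and 5 without RFP+ MHCIIlo replicates 1 and 4.

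Of the 6 simple keratins, 5 were highest in RFP+ MHCIIlo and Krt7 in RFP- MHCIIlo. Krt18 (ENSMUSG00000023043, chr15:102028180-102032027, plus strand), the type I partner of Krt8 in simple epithelia, was at 664, 539, 557 and 748 CPM in RFP- MHCIIhi and 709.9, 610.2, 630.4 and 693 CPM in RFP+ MHCIIhi. Krt18 stood at 770.0, 743, 649.7 and 769 CPM in RFP- MHCIIlo and at 1123, 959, 933 and 823 CPM in RFP+ MHCIIlo. All RFP+ MHCIIlo libraries lay above all others, while the other populations overlapped. Krt18 rose by 0.54 (SE 0.11, adjusted p = 1.5e-04) in RFP+ MHCIIlo against RFP+ MHCIIhi and by 0.39 (SE 0.11, adjusted p = 0.0036) against RFP- MHCIIlo, on the log2 scale used for every difference below. Its partner Krt8 was at 227 ± 20.9, 263 ± 23.8, 208 ± 13.3 and 281 ± 11.2 CPM in RFP- and RFP+ MHCIIhi and then RFP- and RFP+ MHCIIlo, an order of populations kept below where 4 values are given. Per kb of exon, Krt8 reached 0.209 ± 0.0141 of Krt18 in RFP- MHCIIlo and 0.292 ± 0.0107 in RFP+ MHCIIhi, though 26.9% of the 50-base windows of Krt8 also occur in other genes. Krt8 rose with RFP by 0.43 (SE 0.083, adjusted p = 1.1e-04) in MHCIIlo and by 0.22 (SE 0.082, adjusted p = 0.035) in MHCIIhi cells. The second call was lost in 8 of 24 alternatives, when 1 of RFP- MHCIIhi replicates 2, 3 and 4, RFP+ MHCIIhi replicates 1 and 4 and RFP+ MHCIIlo replicates 2 and 3 was left out or with RLE size factors (adjusted p 0.014 to 0.17 over all alternatives).

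Krt19, a keratin of ducts and other simple epithelia, separated all 4 populations without overlap. It was at 37.6, 37.4, 33.1 and 37.3 CPM in RFP- MHCIIhi and 121, 98.1, 93.3 and 101 CPM in RFP+ MHCIIhi. Krt19 stood at 199, 146, 161 and 139 CPM in RFP- MHCIIlo and at 322, 290.0, 262 and 259 CPM in RFP+ MHCIIlo. It rose with RFP in both gates, by 1.504 (SE 0.11, adjusted p = 7.5e-11) in MHCIIhi and 0.81 (SE 0.10, adjusted p = 6.2e-07) in MHCIIlo, and with low MHC class II in both labels, by 2.15 (SE 0.11, adjusted p = 4.9e-14) in RFP- and 1.46 (SE 0.11, adjusted p = 6.8e-11) in RFP+ cells. The RFP difference of Krt19 was smaller in MHCIIlo than in MHCIIhi cells (-0.69 (SE 0.15, adjusted p = 8.9e-04)).

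Krt7, a keratin of ducts and mesothelium, was instead highest in RFP- MHCIIlo. Krt7 was at 271, 270.3, 269 and 251 CPM in that population and 143, 149.8, 181 and 117 CPM in RFP+ MHCIIlo. In the MHCIIhi cells Krt7 was at 84.6 to 114 CPM in RFP- and 102 to 123 CPM in RFP+. The RFP- MHCIIlo libraries lay above all others. Krt7 was higher in RFP- MHCIIlo than in RFP- MHCIIhi by 1.46 (SE 0.11, adjusted p = 3.1e-11) and changed by -0.84 (SE 0.11, adjusted p = 5.3e-07) from RFP- to RFP+ MHCIIlo, while it was higher in RFP+ MHCIIlo than in RFP+ MHCIIhi (0.43 (SE 0.11, adjusted p = 0.0018)). RFP- MHCIIlo libraries also held the highest sums of mesothelial markers (7 of 7 in the files, 439 to 662 CPM, against 83.2 to 96.3, 169 to 176 and 324 to 404 CPM in RFP- MHCIIhi, RFP+ MHCIIhi and RFP+ MHCIIlo). Mesenchymal markers (7 of 7) summed to 426 to 967 CPM there and 53.9 to 171 CPM elsewhere, and endothelial markers (6 of 6) to 51.4 to 84.4 CPM there and 24.8 to 52.9 CPM elsewhere. Single markers departed from these sums, with Msln and Tek highest by mean in RFP+ MHCIIlo and Pdgfrb in RFP+ MHCIIhi. The part of such cells in the levels of Krt7, Krt19, Krt5 and Krt14 was not tested.

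Krt23, a type I keratin of glandular epithelia, was at 22.9, 21.0, 17.2 and 19.1 CPM in RFP- MHCIIhi and 60.9, 53.2, 61.6 and 56.7 CPM in RFP+ MHCIIhi. RFP- MHCIIlo libraries held Krt23 at 37.6, 24.6, 22.2 and 18.8 CPM and RFP+ MHCIIlo libraries at 104, 98.5, 95.6 and 80.1 CPM. Every RFP+ library lay above every RFP- library. Krt23 rose with RFP by 1.53 (SE 0.14, adjusted p = 4.8e-09) in MHCIIhi and 1.88 (SE 0.14, adjusted p = 1.4e-10) in MHCIIlo cells. Krt20, a keratin of intestinal epithelium, showed the same split at smaller size, with 75.3 to 83.0 and 67.9 to 79.9 CPM in the RFP- and 108 to 122 and 108 to 149 CPM in the RFP+ populations of MHCIIhi and MHCIIlo. Krt20 rose with RFP by 0.52 (SE 0.091, adjusted p = 4.5e-05) and 0.90 (SE 0.092, adjusted p = 2.0e-08) in these gates. Of the 6 simple keratins, 4 rose with RFP in MHCIIhi and 5 in MHCIIlo cells, where Krt7 fell. Of all genes, 23.8% and 28.9% were higher in RFP+ in these gates.

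**Figure D3:**
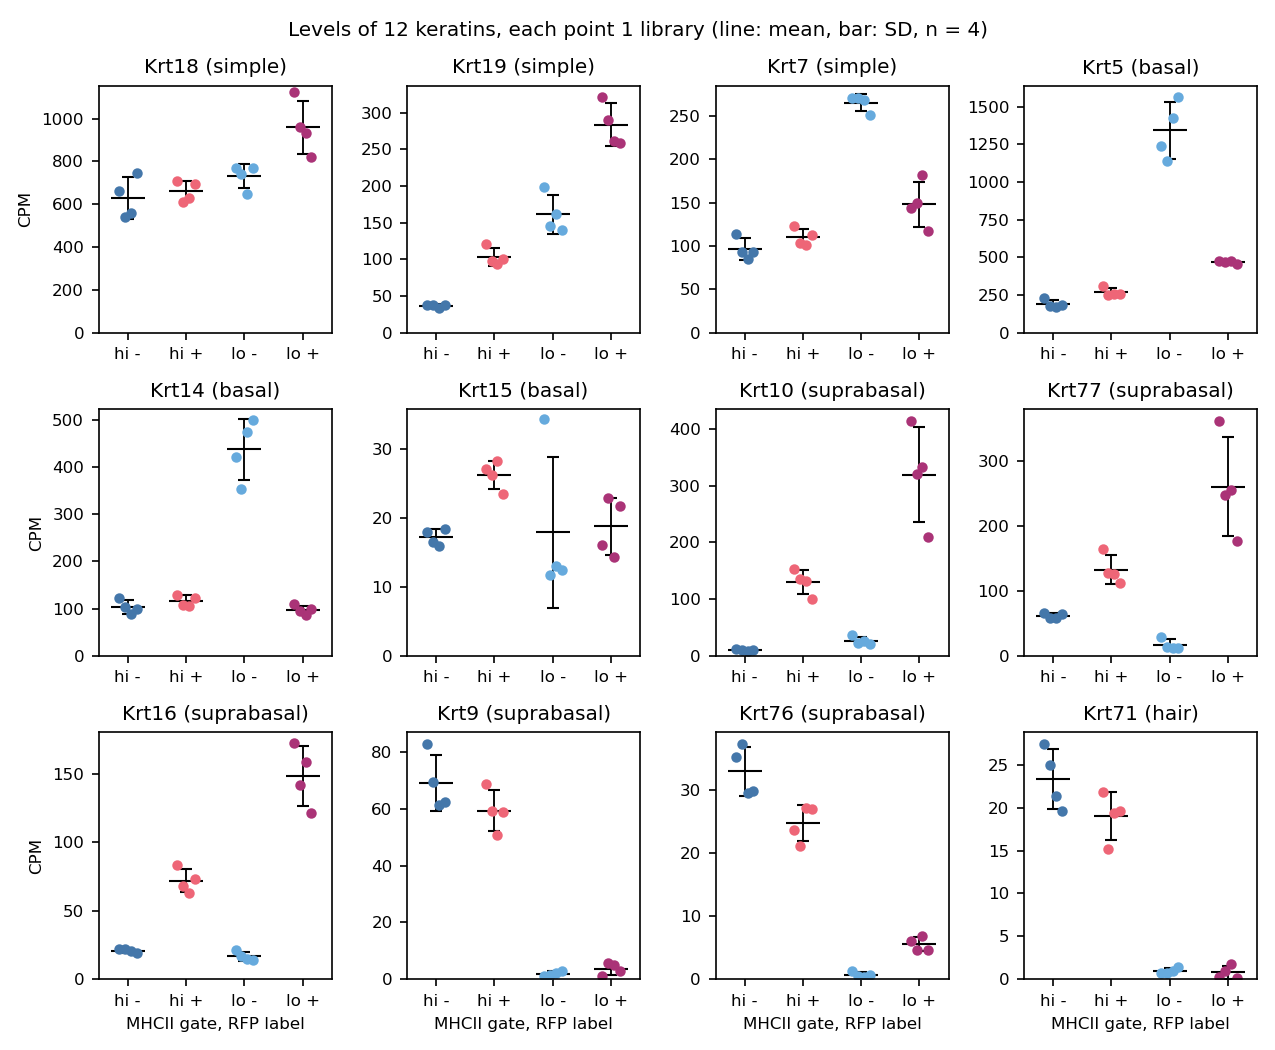
CPM of 12 keratins in each library (points, linear y axis) by population (x axis). Lines are means and error bars SD. Krt5 and Krt14 are highest in RFP- MHCIIlo, Krt10, Krt77 and Krt16 in RFP+ MHCIIlo, and Krt9, Krt76 and Krt71 in the MHCIIhi populations.

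Of the 3 basal keratins, Krt5 and Krt14 were highest in RFP- MHCIIlo and Krt15 in RFP+ MHCIIhi. Krt5 (ENSMUSG00000061527, chr15:101707070-101712898, minus strand), the type II keratin of basal keratinocytes, was at 229.5, 174, 169.8 and 181 CPM in RFP- MHCIIhi and 311, 252, 258 and 255 CPM in RFP+ MHCIIhi. Krt5 stood at 1239.6, 1140.0, 1422 and 1567 CPM in RFP- MHCIIlo and at 478, 469, 476 and 458 CPM in RFP+ MHCIIlo. The 4 populations did not overlap, and the lowest RFP- MHCIIlo library was above the highest of any other population. Between gates Krt5 was higher in MHCIIlo cells by 2.83 (SE 0.11, adjusted p = 6.7e-16) without the label and by 0.81 (SE 0.11, adjusted p = 7.5e-07) with it. The RFP difference turned from 0.51 (SE 0.11, adjusted p = 3.2e-04) in MHCIIhi to -1.51 (SE 0.11, adjusted p = 3.3e-11) in MHCIIlo cells, a difference of -2.02 (SE 0.15, adjusted p = 4.1e-10) between the gates.

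Krt14, the partner of Krt5 in basal keratinocytes, shared only part of this pattern. It was at 123, 103, 87.9 and 99.3 CPM in RFP- MHCIIhi and 129, 107, 106 and 123 CPM in RFP+ MHCIIhi. Krt14 stood at 422, 354, 474 and 499.8 CPM in RFP- MHCIIlo and at 109, 95.6, 86.9 and 98.5 CPM in RFP+ MHCIIlo. RFP- MHCIIlo stood above the rest, and the other populations overlapped. Krt14 changed by -2.17 (SE 0.11, adjusted p = 2.2e-13) from RFP- to RFP+ MHCIIlo and was higher in RFP- MHCIIlo than in RFP- MHCIIhi by 2.08 (SE 0.11, adjusted p = 1.3e-13). Against RFP+ MHCIIhi, RFP+ MHCIIlo gave -0.26 (SE 0.11, adjusted p = 0.055) and was not called, with adjusted p from 0.0042 to 0.12 over the alternatives, of which 15 of 24 called it. The ratio of Krt5 to Krt14, in CPM per kb, was 1.46 ± 0.0786, 1.85 ± 0.135, 2.46 ± 0.102 and 3.89 ± 0.373 in the 4 populations, without overlap. Part of the reads of Krt14 is uncertain, since 13.9% of its 50-base windows also occur in Krt16 or Krt17, and 8.52% of those of Krt5 occur elsewhere.

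Krt15, found in basal cells and hair follicle stem cells, depended on a single library. It was at 15.9 to 18.3 CPM in RFP- MHCIIhi, 23.4 to 28.3 CPM in RFP+ MHCIIhi and 14.3 to 22.9 CPM in RFP+ MHCIIlo. In RFP- MHCIIlo Krt15 was at 34.3, 11.7, 13.1 and 12.4 CPM, so replicate 1 stood apart. RFP- MHCIIlo against RFP- MHCIIhi gave 0.033 (SE 0.23, adjusted p = 0.91), and -0.47 (adjusted p = 0.0054) without that library. RFP+ against RFP- MHCIIlo gave 0.090 (SE 0.24, adjusted p = 0.78), and 0.60 (adjusted p = 0.0016) without it. Over all alternatives the adjusted p ranged from 0.0054 to 1.0 in the first and 0.0016 to 0.98 in the second comparison. RFP+ MHCIIhi cells held more Krt15 than RFP- MHCIIhi cells, by 0.61 (SE 0.22, adjusted p = 0.030). This call was lost in 8 of 24 alternatives, when 1 of RFP- MHCIIhi replicates 1, 2, 3 and 4 and RFP+ MHCIIhi replicates 1, 2 and 3 was left out or with DESeq2 (adjusted p 1.5e-06 to 0.10 over all alternatives).

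Of the 5 epidermal suprabasal keratins, Krt1, Krt10 and Krt77 were highest in RFP+ MHCIIlo, while Krt9 and Krt2 were highest in MHCIIhi cells. Krt10 (ENSMUSG00000019761, chr11:99385254-99389364, minus strand), the type I keratin of the layers above the basal layer, was at 12.0, 10.9, 8.60 and 11.1 CPM in RFP- MHCIIhi and 153, 135, 132 and 101 CPM in RFP+ MHCIIhi. RFP- MHCIIlo libraries held Krt10 at 37.2, 22.1, 25.9 and 20.3 CPM and RFP+ MHCIIlo libraries at 414, 321, 333 and 209 CPM. The populations did not overlap. Krt10 rose with RFP by 3.598 (SE 0.20, adjusted p = 6.3e-13) already in MHCIIhi cells, and the difference between that rise and the one in MHCIIlo cells, 0.0071 (SE 0.28, adjusted p = 0.99), was not called. With low MHC class II it was higher by 1.29 (SE 0.20, adjusted p = 4.2e-06) in RFP- and 1.29 (SE 0.17, adjusted p = 7.4e-07) in RFP+ cells.

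Krt1, the type II partner of Krt10, followed the same order of populations, with 9.25 to 11.8 CPM in RFP- MHCIIhi, 57.5 to 93.7 CPM in RFP+ MHCIIhi, 13.1 to 22.7 CPM in RFP- MHCIIlo and 193 to 322 CPM in RFP+ MHCIIlo. In MHCIIhi cells Krt1 rose with RFP by 2.78 (SE 0.18, adjusted p = 1.6e-11), and the rise was larger in MHCIIlo cells by 1.18 (SE 0.25, adjusted p = 8.1e-04). Per kb of exon Krt1 stood at 0.497 ± 0.114, 0.272 ± 0.0167, 0.313 ± 0.0561 and 0.396 ± 0.0705 of Krt10. The size of these ratios depends on the length used. All exons of Krt1 together span 4415 bases and its longest transcript 3133, against 2114 and 2094 for Krt10. The ratios were taken with the first of these lengths.

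Krt77 (ENSMUSG00000067594, chr15:101858731-101869705, minus strand), a type II keratin of epidermis and sweat gland ducts that neighbours Krt1, differed from Krt1 and Krt10 in the RFP- cells. It was at 65.6, 58.8, 58.2 and 64.8 CPM in RFP- MHCIIhi and 164, 128, 125 and 113 CPM in RFP+ MHCIIhi. Krt77 stood at 29.3, 13.2, 12.8 and 12.7 CPM in RFP- MHCIIlo and at 361, 247, 255 and 176 CPM in RFP+ MHCIIlo. RFP- MHCIIlo was lowest, without overlap between populations, and its replicate 1 lay above the other three. Among RFP- cells Krt77 was lower in MHCIIlo, where Krt10 was higher, with a difference of -1.88 (SE 0.22, adjusted p = 6.4e-08), and among RFP+ cells it was higher by 0.97 (SE 0.19, adjusted p = 1.7e-04). The RFP difference of Krt77 was 1.09 (SE 0.20, adjusted p = 7.1e-05) in MHCIIhi and larger in MHCIIlo by 2.86 (SE 0.29, adjusted p = 6.7e-08). The ratio of Krt77 to Krt10, per kb, was 4.23 ± 0.460 in RFP- MHCIIhi and between 0.452 ± 0.0882 and 0.736 ± 0.0625 in the other populations.

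Krt9 (ENSMUSG00000051617, chr11:100186781-100193246, minus strand), the epidermal keratin of palms and soles, was high in MHCIIhi cells. It was at 82.9, 69.4, 61.3 and 62.6 CPM in RFP- MHCIIhi and 68.7, 59.3, 50.9 and 58.7 CPM in RFP+ MHCIIhi. Krt9 stood at 0.957, 1.53, 2.13 and 2.92 CPM in RFP- MHCIIlo and at 1.08, 5.73, 5.09 and 2.82 CPM in RFP+ MHCIIlo. Populations of one gate overlapped, and the gates were far apart. Krt9 was lower in MHCIIlo, with differences of -5.16 (SE 0.25, adjusted p = 2.1e-14) in RFP- and -4.04 (SE 0.23, adjusted p = 1.9e-12) in RFP+ cells, and RFP+ against RFP- MHCIIhi gave -0.22 (SE 0.17, adjusted p = 0.31). Within MHCIIlo it was higher in RFP+ by 0.90 (SE 0.35, adjusted p = 0.034). This call was lost in 6 of 24 alternatives, when 1 of RFP- MHCIIlo replicates 1 and 2 and RFP+ MHCIIlo replicates 2 and 3 was left out or with limma-voom or only the populations compared (adjusted p 1.7e-04 to 0.21 over all alternatives). Krt2, of the upper epidermis, stayed under 5 CPM everywhere and was called lower in MHCIIlo cells with and without the label.

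All 4 mucosal keratins were lower in MHCIIlo than in MHCIIhi cells of either label (35.6% of all genes among RFP- and 28.1% among RFP+ cells). Krt76 (ENSMUSG00000075402, chr15:101884351-101892920, minus strand), a type II keratin of the oral mucosa, was at 35.3, 37.4, 29.5 and 29.9 CPM in RFP- MHCIIhi and 23.7, 21.2, 27.3 and 27.1 CPM in RFP+ MHCIIhi. RFP- MHCIIlo libraries held Krt76 at 1.28, 0.509, 0.256 and 0.602 CPM and RFP+ MHCIIlo libraries at 6.05, 4.63, 6.86 and 4.56 CPM. The RFP+ MHCIIlo libraries were above all RFP- MHCIIlo and below all MHCIIhi libraries. Krt76 was lower in MHCIIlo, with differences of -5.69 (SE 0.23, adjusted p = 1.0e-15) in RFP- and -2.17 (SE 0.17, adjusted p = 2.1e-10) in RFP+ cells, and within MHCIIlo it was higher in RFP+ by 3.11 (SE 0.28, adjusted p = 2.4e-09). In MHCIIhi it was lower in RFP+, at -0.41 (SE 0.14, adjusted p = 0.019). This call was lost in 4 of 24 alternatives, when 1 of RFP- MHCIIhi replicates 1 and 2 and RFP+ MHCIIhi replicates 1 and 2 was left out (adjusted p 8.2e-04 to 0.085 over all alternatives). Krt77, its neighbour on chromosome 15, was by contrast highest in RFP+ MHCIIlo.

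Krt13 and Krt4, the type I and type II pair of the oesophagus and other mucosae, both fell with low MHC class II. Krt13 was at 22.5, 26.1, 25.9 and 23.4 CPM in RFP- MHCIIhi and 21.9, 14.5, 16.5 and 21.5 CPM in RFP+ MHCIIhi. Krt13 stood at 1.59, 0.339, 0.768 and 0.172 CPM in RFP- MHCIIlo and at 0.432, 2.07, 5.40 and 2.32 CPM in RFP+ MHCIIlo. Its MHCIIlo libraries were spread widely, and those of RFP- and RFP+ overlapped. Krt13 was lower in MHCIIlo among RFP- cells, by a difference of -5.15 (SE 0.40, adjusted p = 6.2e-11), or -5.81 (adjusted p = 7.1e-11) without RFP- MHCIIlo replicate 1. Among RFP+ cells the difference was -2.84 (SE 0.33, adjusted p = 1.3e-07), or -3.51 (adjusted p = 5.7e-09) without RFP+ MHCIIlo replicate 3. Over all alternatives the adjusted p of Krt13 was at most 2.8e-08 and 5.6e-06 in these comparisons. Krt4 was at 14.8, 15.7, 14.9 and 14.6 CPM in RFP- MHCIIhi and 21.4, 15.81, 16.1 and 15.4 CPM in RFP+ MHCIIhi. Krt4 stood at 3.83, 1.10, 1.62 and 2.58 CPM in RFP- MHCIIlo and at 14.6, 10.7, 12.2 and 12.1 CPM in RFP+ MHCIIlo. Krt4 changed by -2.75 (SE 0.22, adjusted p = 1.1e-10) between the RFP- gates, and by -0.46 (SE 0.18, adjusted p = 0.031) between the RFP+ gates. The second call was lost in 2 of 24 alternatives, when 1 of RFP+ MHCIIhi replicate 1 and RFP+ MHCIIlo replicate 2 was left out (adjusted p 0.0038 to 0.11 over all alternatives). From RFP- to RFP+ MHCIIlo, Krt4 rose by 2.47 (SE 0.23, adjusted p = 2.9e-09). Krt12, the type I keratin of the cornea, had mean levels under 5 CPM in all populations and was lower in MHCIIlo in both labels. Exons of Krt12 overlap a gene on the opposite strand by 1007 bases, and those of Krt5, Krt6a, Krt6b, Krt7, Krt8, Krt10, Krt32, Krt75, Krt76, Krt80 and Krt90 overlap such genes by 77 to 471 bases per pair. The strand setting of the counting is not known here, so reads from these stretches cannot be assigned to either gene.

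The 4 wound-inducible keratins were all higher in RFP+ than in RFP- cells of either gate, and all were highest in RFP+ MHCIIlo. Of all genes, 23.8% were higher in RFP+ in MHCIIhi and 28.9% in MHCIIlo cells. Krt16, a type I keratin induced in wounded epidermis, was at 22.3, 22.1, 20.6 and 18.7 CPM in RFP- MHCIIhi and 83.2, 68.2, 63.1 and 73.4 CPM in RFP+ MHCIIhi. RFP- MHCIIlo libraries held Krt16 at 21.4, 16.5, 14.8 and 13.8 CPM and RFP+ MHCIIlo libraries at 172, 142, 159 and 121 CPM. The RFP- populations overlapped and both RFP+ populations were above them. Krt16 rose with RFP by 1.78 (SE 0.12, adjusted p = 3.0e-11) in MHCIIhi and 3.17 (SE 0.13, adjusted p = 4.2e-15) in MHCIIlo, and the rise was larger in MHCIIlo by 1.39 (SE 0.17, adjusted p = 1.4e-06). Of the 50-base windows of Krt16, 37.6% also occur in Gm11597, Krt14 or Krt17, so its values are uncertain. Krt6a and Krt6b, type II partners of Krt16, are similar in sequence, with 45.7% and 50.1% of their 50-base windows found in another gene. Krt6a was at 2.54 ± 0.550, 13.7 ± 2.77, 17.0 ± 3.76 and 46.6 ± 5.59 CPM in the 4 populations, and rose with RFP by 2.39 (SE 0.19, adjusted p = 3.5e-10) in MHCIIhi and 1.46 (SE 0.16, adjusted p = 3.7e-08) in MHCIIlo. Krt6b was at 1.92 ± 0.224, 17.9 ± 3.22, 5.55 ± 1.37 and 41.2 ± 6.24 CPM and rose by 3.22 (SE 0.18, adjusted p = 1.1e-12) and 2.88 (SE 0.16, adjusted p = 7.4e-13). Krt6a was also higher in RFP- MHCIIlo than in RFP- MHCIIhi (2.70 (SE 0.19, adjusted p = 1.3e-11)). Krt17, the most abundant of the class, was at 297 ± 27.2, 368 ± 35.2, 407 ± 83.9 and 492 ± 46.7 CPM and rose by 0.42 (SE 0.11, adjusted p = 0.0034) from RFP+ MHCIIhi to RFP+ MHCIIlo. With RFP, Krt17 rose by 0.31 (SE 0.11, adjusted p = 0.031) in MHCIIhi. This call was lost in 5 of 24 alternatives, when 1 of RFP- MHCIIhi replicates 2, 3 and 4 and RFP+ MHCIIhi replicates 1 and 4 was left out (adjusted p 0.0011 to 0.10 over all alternatives). In MHCIIlo it rose by 0.27 (SE 0.11, adjusted p = 0.049). This call was lost in 17 of 24 alternatives, when 1 of RFP- MHCIIhi replicates 1, 2, 3 and 4, RFP- MHCIIlo replicates 1, 2 and 3, RFP+ MHCIIhi replicates 1, 2, 3 and 4 and RFP+ MHCIIlo replicates 1, 2 and 3 was left out or with RLE size factors, mitochondrial genes left out or only the populations compared (adjusted p 0.0017 to 0.17 over all alternatives).

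All 21 described hair keratins were lower in RFP- MHCIIlo than in RFP- MHCIIhi, and 18 were lower and 1 higher in RFP+ MHCIIlo than in RFP+ MHCIIhi. Their medians were -3.22 and -2.24 on the log2 scale (-3.22 also with Krt34 at its bound). Of all genes, 35.6% and 28.1% were lower in these comparisons. Krt25, Krt26, Krt27, Krt28, Krt32, Krt33a, Krt34 and Krt39 reached 10 reads in 8 libraries each, all of them MHCIIhi. Krt35, Krt72, Krt73, Krt81 and Krt86 did so in 9 libraries. Such genes passed the filter through the MHCIIhi gate, so the filter favoured their fall in MHCIIlo. The count of 21 is therefore not independent of how members were chosen. Between RFP+ and RFP- MHCIIhi 2 of the 21 hair keratins were higher, 2 lower and 17 not called. Between RFP+ and RFP- MHCIIlo 8 were higher and 1 lower (median 1.18, or 1.13 with Krt34 at its bound). Both shares called were below those of all genes, 45.0% in MHCIIhi and 51.6% in MHCIIlo. Levels were low, with 11 of 21 highest in RFP- MHCIIhi, 9 in RFP+ MHCIIhi and 1 in RFP+ MHCIIlo. The sum of cortical epithelial markers (8 of 8 in the files) was likewise highest in RFP- MHCIIhi, at 2500.0 to 3683 CPM against 1259 to 1607 CPM in RFP+ MHCIIhi and 260 to 553 CPM in the MHCIIlo cells. Of its members, Dll4 had its highest mean in RFP+ MHCIIhi (29.5 CPM) and Ackr4 in RFP- MHCIIlo (81.6 CPM). Thymocyte markers (9 of 9) summed to 272 to 604 CPM in RFP- MHCIIhi and 20.0 to 119 CPM elsewhere. Their part in the hair keratin levels was not tested.

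Krt71 (ENSMUSG00000051879, chr15:101733949-101743109, minus strand), a type II keratin of the inner root sheath, was the most abundant root sheath keratin in the MHCIIhi cells. It was at 27.4, 24.97, 21.4 and 19.6 CPM in RFP- MHCIIhi and 21.8, 15.2, 19.4 and 19.6 CPM in RFP+ MHCIIhi. Krt71 stood at 0.744, 0.679, 0.938 and 1.46 CPM in RFP- MHCIIlo and at 0.216, 0.975, 1.77 and 0.166 CPM in RFP+ MHCIIlo. The gates did not overlap, while RFP- and RFP+ cells of one gate did. Krt71 was lower in MHCIIlo, with differences of -4.59 (SE 0.29, adjusted p = 2.0e-12) in RFP- and -4.65 (SE 0.32, adjusted p = 2.4e-11) in RFP+ cells, the latter moving to -5.53 (adjusted p = 6.9e-12) without RFP+ MHCIIlo replicate 3 and -3.76 (adjusted p = 9.6e-11) without RFP+ MHCIIlo replicates 1 and 4. Over all alternatives that adjusted p was at most 2.9e-08. Its type I counterpart in the inner root sheath, Krt25, was at 6.26 ± 1.09, 5.37 ± 0.488, 0.224 ± 0.0399 and 0.202 ± 0.0653 CPM, and was lower in MHCIIlo, with differences of -4.74 (SE 0.29, adjusted p = 1.2e-12) and -4.65 (SE 0.31, adjusted p = 1.8e-11) in RFP- and RFP+ cells.

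Krt73, of the inner root sheath cuticle, had few reads outside the MHCIIhi gate. It was at 14.7, 15.81, 12.6 and 10.6 CPM in RFP- MHCIIhi and 12.2, 9.51, 9.27 and 11.51 CPM in RFP+ MHCIIhi. Krt73 stood at 0, 0, 0.171 and 0.0860 CPM in RFP- MHCIIlo and at 0, 1.71, 0.312 and 0.0829 CPM in RFP+ MHCIIlo. It had 910 reads in RFP- MHCIIhi and 3 in RFP- MHCIIlo, a ratio of 200.05 after scaling (68.2 to 972, exact 95% interval for counting error only), and 653 and 18 reads in the RFP+ gates, a ratio of 22.7 (14.3 to 38.6). The hair shaft keratin Krt34 had 62 reads in RFP- MHCIIhi and 0 in RFP- MHCIIlo. With a floor of 3 reads over the group, Krt34 was at least 13.6-fold lower in RFP- MHCIIlo.

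Not every hair keratin followed the gate. Krt75, of the companion layer of the follicle, was at 10.5, 10.7, 10.6 and 9.13 CPM in RFP- MHCIIhi and 10.2, 11.55, 11.7 and 9.19 CPM in RFP+ MHCIIhi. RFP- MHCIIlo libraries held Krt75 at 3.93, 6.53, 3.16 and 4.30 CPM and RFP+ MHCIIlo libraries at 32.0, 23.4, 19.3 and 27.5 CPM. Krt75 was thus lowest in RFP- MHCIIlo and highest in RFP+ MHCIIlo, without overlap with the MHCIIhi cells. It rose by 2.51 (SE 0.19, adjusted p = 8.1e-11) from RFP- to RFP+ MHCIIlo and by 1.26 (SE 0.17, adjusted p = 8.4e-07) from RFP+ MHCIIhi to RFP+ MHCIIlo, the rise counted above among the hair keratins. Krt84, a type II hair keratin known from nail and tongue papillae, was at 13.5, 11.4, 10.9 and 11.9 CPM in RFP- MHCIIhi and 40.9, 37.2, 36.5 and 38.4 CPM in RFP+ MHCIIhi. Krt84 stood at 2.66, 5.35, 2.47 and 2.67 CPM in RFP- MHCIIlo and at 39.98, 28.3, 31.7 and 32.3 CPM in RFP+ MHCIIlo. Both RFP+ populations lay above both RFP- populations. Krt84 rose with RFP by 1.67 (SE 0.14, adjusted p = 9.3e-10) in MHCIIhi and 3.32 (SE 0.17, adjusted p = 1.9e-13) in MHCIIlo cells, and RFP+ MHCIIlo against RFP+ MHCIIhi gave -0.21 (SE 0.13, adjusted p = 0.19). Krt82, of the hair cuticle, was at 7.25, 6.24, 7.30 and 7.09 CPM in RFP+ MHCIIhi and at no more than 2.26 CPM in any library of the other populations, and rose with RFP by 2.00 (SE 0.24, adjusted p = 2.2e-07) in MHCIIhi. The shaft keratins Krt81, Krt83, Krt86, Krt87 and Krt34 share 37.7, 22.1, 43.3, 36.9 and 33.1% of their 50-base windows with other genes, so their single values are uncertain.

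**Figure D4:**
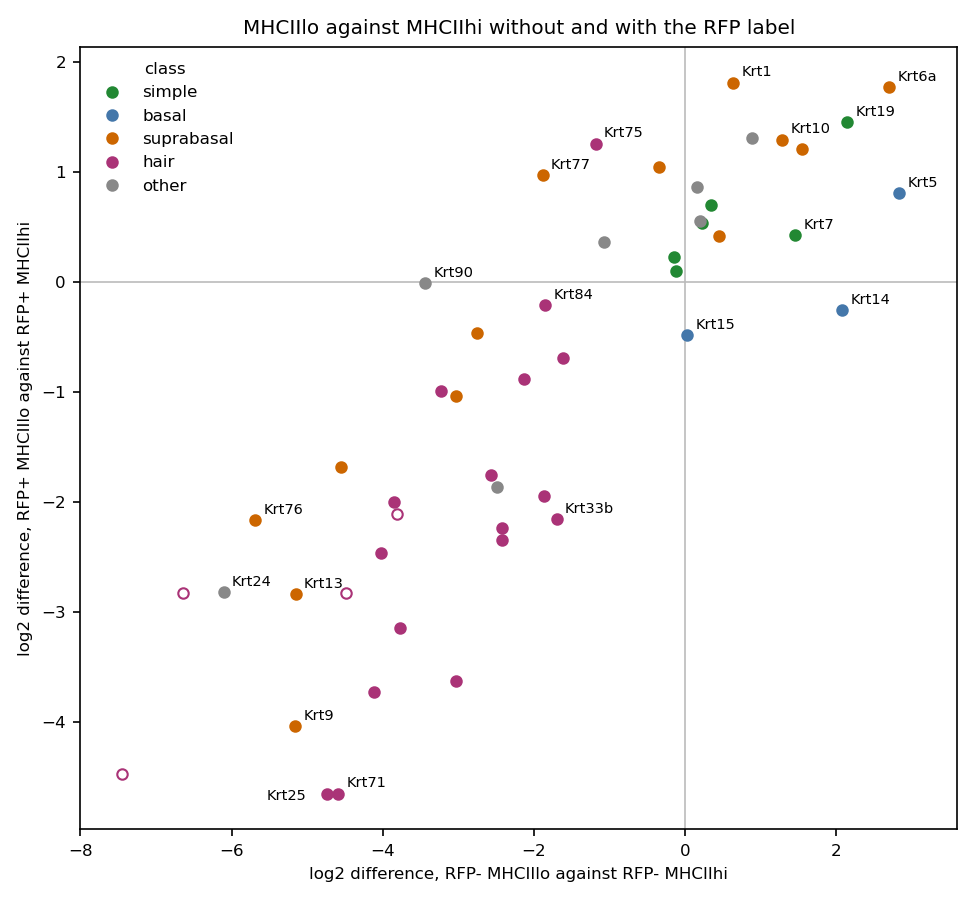
Log2 difference between MHCIIlo and MHCIIhi in RFP- cells (x axis) and in RFP+ cells (y axis) for the 50 keratins, coloured by class; open circles have at most 3 reads in RFP- MHCIIlo, so that their x value depends on the prior count. All hair keratins lie left of 0, and Krt5, Krt6a, Krt19 and Krt14 lie farthest right.

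The remaining keratins were all higher in RFP+ than in RFP- MHCIIlo cells (7 of 7), and 5 of 7 were higher in RFP+ than in RFP- MHCIIhi. Of all genes, 28.9% and 23.8% were higher in these comparisons. Krt79, a marker of the hair follicle opening, was at 7.28, 7.42, 6.68 and 7.64 CPM in RFP- MHCIIhi and 45.8, 39.4, 39.3 and 38.7 CPM in RFP+ MHCIIhi. Krt79 stood at 12.9, 8.40, 4.61 and 7.14 CPM in RFP- MHCIIlo and at 99.4, 75.9, 76.9 and 44.9 CPM in RFP+ MHCIIlo. RFP- and RFP+ libraries did not overlap in either gate. Krt79 rose with RFP by 2.49 (SE 0.21, adjusted p = 8.1e-10) in MHCIIhi and 3.19 (SE 0.21, adjusted p = 1.5e-11) in MHCIIlo cells. Krt78 and Krt80, type II keratins of stratified epithelia, did the same, with 8.57 ± 0.797, 45.5 ± 6.49, 9.95 ± 1.94 and 66.9 ± 11.4 CPM for Krt78 and 4.69 ± 0.464, 18.4 ± 3.91, 8.83 ± 2.41 and 45.7 ± 13.7 CPM for Krt80. Krt78 rose with RFP by 2.40 (SE 0.14, adjusted p = 1.4e-12) and 2.76 (SE 0.14, adjusted p = 1.4e-13), and Krt80 by 1.96 (SE 0.20, adjusted p = 2.5e-08) and 2.38 (SE 0.20, adjusted p = 4.5e-10), in MHCIIhi and MHCIIlo cells.

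Krt24 alone among these 7 had its highest mean in RFP- MHCIIhi, at 11.3, 12.2, 10.6 and 11.6 CPM in RFP- MHCIIhi and 10.1, 9.22, 10.2 and 14.0 CPM in RFP+ MHCIIhi. RFP- MHCIIlo libraries held Krt24 at 0, 0.255, 0 and 0.344 CPM and RFP+ MHCIIlo libraries at 0.432, 2.80, 1.87 and 1.16 CPM. Its gates did not overlap. Krt24 was lower in MHCIIlo among RFP- cells, by a difference of -6.10 (SE 0.43, adjusted p = 1.6e-11), or -6.83 (adjusted p = 1.0e-10) without RFP- MHCIIlo replicate 4. In RFP+ cells the difference was -2.82 (SE 0.30, adjusted p = 4.1e-08), or -2.23 (adjusted p = 7.8e-07) without RFP+ MHCIIlo replicates 1 and 4. Over all alternatives the adjusted p of Krt24 was at most 5.2e-08 and 2.1e-06. Krt42 was at 4.81 ± 0.217, 10.5 ± 1.13, 0.842 ± 0.141 and 2.88 ± 1.33 CPM and highest in RFP+ MHCIIhi, where it rose with RFP by 1.12 (SE 0.20, adjusted p = 7.8e-05). Krt222 was at 21.6 ± 1.94, 31.1 ± 2.32, 10.3 ± 1.23 and 39.96 ± 5.07 CPM. Krt90 reached 5 CPM in no population.

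Some neighbouring genes had different patterns. Krt2, Krt1, Krt77 and Krt76 lie in this order on chromosome 15, with gaps of 27.3, 7.94 and 14.6 kb, and were highest in RFP+ MHCIIhi, RFP+ MHCIIlo, RFP+ MHCIIlo and RFP- MHCIIhi. On chromosome 11, Krt10 lies 10.35 kb from the root sheath keratin Krt28 and 26.3 kb from the corneal keratin Krt12, both at their highest in MHCIIhi cells, while Krt10 was highest in RFP+ MHCIIlo. Of the 24 pairs of neighbouring described keratins on each chromosome, 8 on chromosome 11 and 11 on chromosome 15 were highest in the same population. The number for genes in random order was not worked out. These counts thus do not show whether neighbours differ more or less than other pairs.

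**Figure D5:**
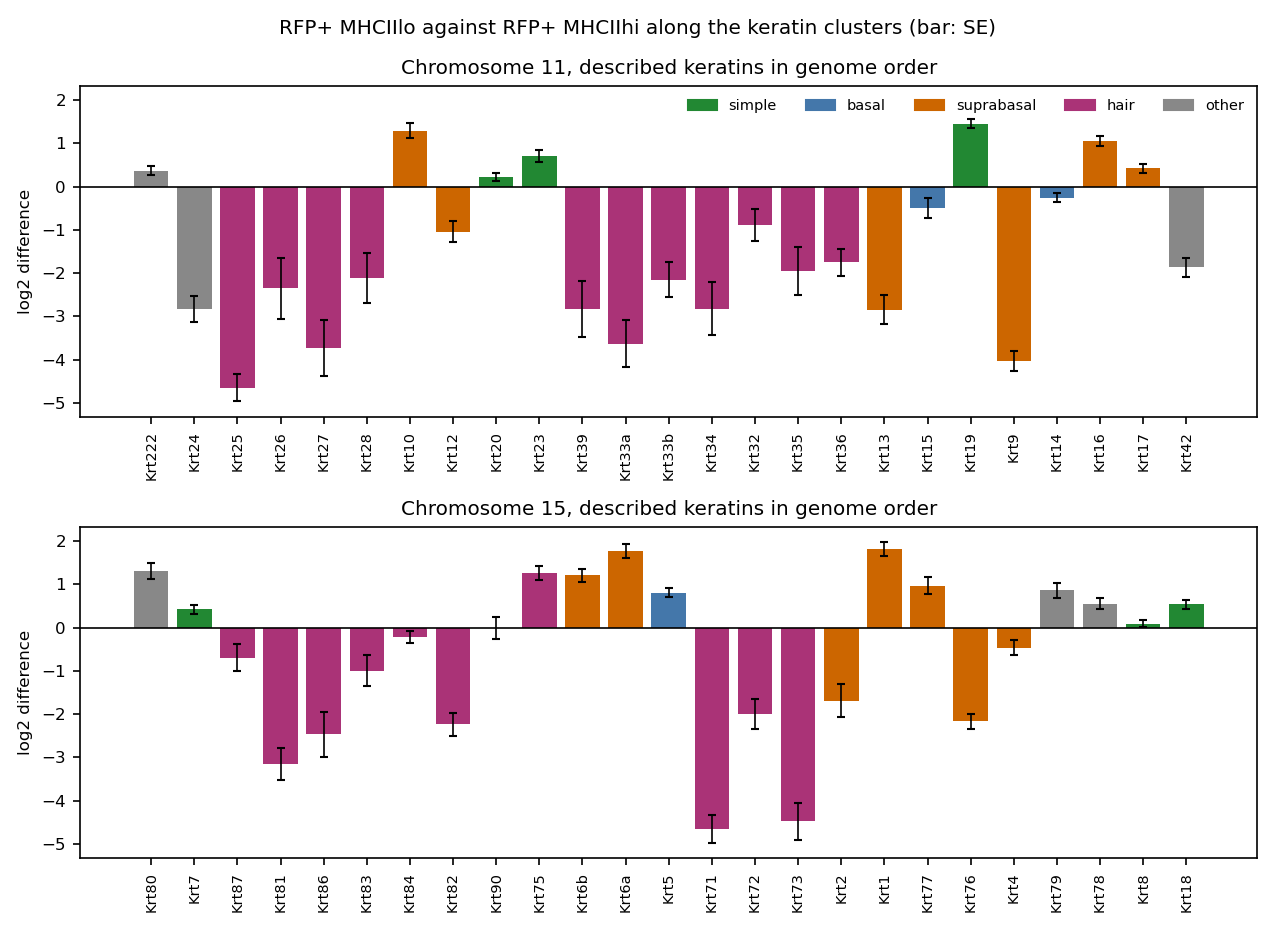
Log2 difference between RFP+ MHCIIlo and RFP+ MHCIIhi (y axis, bars are SE) for the described keratins in their order along chromosomes 11 and 15 (x axis, order and not distance), coloured by class. Krt10 lies above 0 between Krt28 and Krt12 below 0, and the hair keratins lie mostly below 0.

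Genes whose proteins anchor keratin filaments at desmosomes and hemidesmosomes were read for comparison (17 of 18 in the files). RFP+ against RFP- MHCIIlo gave 6 higher and 6 lower, and RFP- MHCIIlo against RFP- MHCIIhi 12 higher and 2 lower. In the first comparison Itga6 (-1.49, adjusted p = 7.2e-13), Itgb4 (-1.30, adjusted p = 4.5e-13) and Dst (-1.12, adjusted p = 1.9e-10), parts of the hemidesmosome that holds basal cells to their matrix, were lower, and Evpl (1.36, adjusted p = 3.8e-09), of the cornified envelope, was higher. In the second, Pkp4 (1.37, adjusted p = 3.5e-14), Itgb4 (1.35, adjusted p = 7.1e-14), Plec (1.31, adjusted p = 4.8e-10) and Dst (1.23, adjusted p = 1.2e-11) were higher. RFP+ MHCIIlo against RFP+ MHCIIhi gave 10 higher and 3 lower, and RFP+ against RFP- MHCIIhi 12 and 3. In the order of these 4 comparisons, 51.6, 69.1, 55.6 and 45.0% of all genes were called in either direction. Of all genes 28.9, 33.5, 27.5 and 23.8% were higher and 22.7, 35.6, 28.1 and 21.2% lower. Of 15 other intermediate filament genes tested, 6 were higher and 4 lower in RFP+ than RFP- MHCIIlo, 2 and 11 in RFP- MHCIIlo against RFP- MHCIIhi, 0 and 9 in RFP+ MHCIIlo against RFP+ MHCIIhi, and 3 and 7 in RFP+ against RFP- MHCIIhi. These counts have the same backgrounds. The 9 of 15 was near its own for either direction, but all 9 were lower, against 28.1% of all genes. Neuronal filament genes led the falls with low MHC class II among RFP- cells, with Prph (-4.29, adjusted p = 8.6e-15), Nefh (-3.96, adjusted p = 4.5e-15) and Nefm (-3.24, adjusted p = 1.0e-13).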

How the data were processed

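Per the labels' protocols, polyadenylated RNA was amplified (NuGen Ovation V2) before Nextera XT library construction. The deposited values are unnormalized read counts by Ensembl identifier. The submitters' processing notes name STAR, GRCm38 and DESeq2 for what the authors did. How and with which annotation and strand setting reads were counted is not stated there. Symbols and exon lengths were taken from GENCODE M21 (42548 identifiers matched, 884 without a symbol held 0.0976% of reads). From the counts, edgeR 4.0.16 in R 4.3.3 gave TMM-scaled CPM and quasi-likelihood tests on all 16 libraries with 1 mean per population. Genes passed filterByExpr (minimum count 10, minimum total 15), which left 19617. The SE of a log2 difference is its size divided by the square root of F. Alternatives were RLE size factors, DESeq2 1.42.0, voom in limma 3.58.1, no filter, mitochondrial genes left out, a replicate block, only the populations compared, and leaving out libraries. Scripts were tested on simulated data. The members, classes, lists and tests were chosen with earlier results of these data known, and the class of Krt88 was added after the files were seen. Tests are printed for keratins whose mean reached 5 CPM in some population, and, with the same minimum of 5 CPM, for anchor and other filament genes among the 4 largest called changes. Libraries within a population differed by more than counting noise (chi-square per degree of freedom 3.18 to 36.8 over 24 pairs), and none was counted as a repeat.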

Additional observations from a re-analysis of the deposited data

Results flagged for a closer look

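Within a population, 1 library was far from the rest for a keratin in 14 of 199 sets of 4 libraries, and chance alone gives about 1 in 20. In RFP- MHCIIhi it was replicate 2 for Krt28 (1.94 CPM), replicate 3 for Krt19 (33.1 CPM) and replicate 4 for Krt75 (9.13 CPM). In RFP+ MHCIIhi it was replicate 1 for Krt4 (21.4 CPM), Krt79 (45.8 CPM) and Krt5 (311 CPM) and replicate 2 for Krt32 (2.10 CPM). In RFP- MHCIIlo it was replicate 1 for Krt80 (12.4 CPM), Krt8 (228 CPM), Krt15 (34.3 CPM), Krt28 (0 CPM) and Krt77 (29.3 CPM), replicate 2 for Krt84 (5.35 CPM) and replicate 4 for Krt7 (251 CPM). For Krt28 the whole RFP- MHCIIlo population held 3 reads, so its far library there is at the floor.

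The RFP difference depended on the MHC class II gate (edgeR, test of the difference itself) for 23 of the 50 keratins and 34.1% of all genes. Of these keratins 19 reached 5 CPM in a population and are named. The RFP difference was more negative in MHCIIlo than in MHCIIhi cells, on the log2 scale, for Krt14 (-2.34, adjusted p = 1.2e-10), Krt5 (-2.02, adjusted p = 4.1e-10), Krt7 (-1.04, adjusted p = 1.1e-05), Krt6a (-0.93, adjusted p = 0.0052) and Krt19 (-0.69, adjusted p = 8.9e-04). It was more positive for Krt76 (3.52, adjusted p = 9.6e-09), Krt24 (3.28, adjusted p = 4.0e-04), Krt77 (2.86, adjusted p = 6.7e-08), Krt75 (2.44, adjusted p = 7.4e-08), Krt13 (2.31, adjusted p = 0.0034), Krt4 (2.29, adjusted p = 1.4e-06), Krt72 (1.85, adjusted p = 0.015), Krt84 (1.64, adjusted p = 4.8e-06), Krt222 (1.44, adjusted p = 1.5e-07), Krt16 (1.39, adjusted p = 1.4e-06), Krt1 (1.18, adjusted p = 8.1e-04), Krt9 (1.12, adjusted p = 0.028) and Krt20 (0.37, adjusted p = 0.028). Krt73 gave 2.98 (adjusted p = 0.033), a value that depends on the prior count, since RFP- MHCIIlo held 3 reads of it. Its call was lost in 5 of 23 alternatives, when 1 of RFP- MHCIIlo replicates 1, 2 and 4 and RFP+ MHCIIlo replicate 2 was left out or with limma-voom (adjusted p 7.5e-04 to 0.44 over all alternatives). Krt73 gave 1.17 (adjusted p = 0.44) without RFP+ MHCIIlo replicate 2, 3.92 (adjusted p = 0.028) without RFP- MHCIIlo replicate 3, 4.00 (adjusted p = 7.5e-04) without RFP+ MHCIIlo replicates 1 and 4, and 1.79 (adjusted p = 0.20) with limma-voom. The call of Krt9 was lost in 7 of 23 alternatives, when 1 of RFP- MHCIIhi replicate 1, RFP- MHCIIlo replicates 1 and 2 and RFP+ MHCIIlo replicates 2 and 3 was left out or with DESeq2 or limma-voom (adjusted p 1.5e-04 to 0.14 over all alternatives). The call of Krt20 was lost in 11 of 23 alternatives, when 1 of RFP- MHCIIhi replicates 1 and 4, RFP- MHCIIlo replicates 1, 3 and 4, RFP+ MHCIIhi replicates 1 and 4 and RFP+ MHCIIlo replicates 2 and 3 was left out or with no filter on low counts or mitochondrial genes left out (adjusted p 9.3e-04 to 0.10 over all alternatives). The call of Krt72 was lost in 1 of 23 alternatives, when RFP+ MHCIIlo replicate 2 was left out (adjusted p 0.0030 to 0.093 over all alternatives). Krt72 then gave 1.23 (adjusted p = 0.093). Leaving out 1 library, or both RFP+ MHCIIlo replicates 1 and 4, moved others by over 1.5 times without loss of the call: Krt13 gave 2.97 (adjusted p = 8.0e-04) without RFP- MHCIIlo replicate 1 and 1.64 (adjusted p = 0.023) without RFP+ MHCIIlo replicate 3, and Krt24 gave 4.00 (adjusted p = 3.6e-04) without RFP- MHCIIlo replicate 4 and 3.87 (adjusted p = 9.9e-06) without RFP+ MHCIIlo replicates 1 and 4. Over all their alternatives the adjusted p ran from 1.5e-08 to 0.023 for Krt13 and from 5.0e-08 to 0.0025 for Krt24. Krt72 was at 5.65 ± 0.917, 3.54 ± 0.522, 0.394 ± 0.229 and 0.912 ± 0.705 CPM in RFP- and RFP+ MHCIIhi and in RFP- and RFP+ MHCIIlo.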

How the results depend on the processing

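Of the 94 single-keratin tests printed, 88 were called, 77 of these kept direction and call in all their alternatives, and none of the called ones changed sign. The counts of keratins called kept within 1.5 times of the values given, except that of keratins lower in RFP+ than RFP- MHCIIhi (3 reported), which was 7 by limma-voom, 9 with only the populations compared, 5 leaving out both RFP+ MHCIIlo libraries 1 and 4, and 0 to 4 leaving out single libraries. The cause was not tested. Krt10 in the difference of RFP differences (MHCIIlo minus MHCIIhi) changed sign (0.0071 reported; -0.14 to 0.21 leaving out single libraries, -0.022 with no filter on low counts and -0.063 with mitochondrial genes left out). Krt15 in RFP+ against RFP- MHCIIlo changed sign (0.090 reported; -0.070 to 0.60 leaving out single libraries). Krt15 in RFP- MHCIIlo against RFP- MHCIIhi changed sign (0.033 reported; -0.47 to 0.18 leaving out single libraries, -0.017 with RLE size factors, -0.16 with limma-voom and -0.011 with the replicate block). The changes of sign were among tests not called. Among keratin levels, the summed CPM in RFP- MHCIIlo was 3405 without TMM factors. No scaling moved the median of all genes by over 0.1. Over all genes, same-numbered libraries were weakly and mostly positively correlated (correlation of deviations -0.02 to 0.13, 4 of 24 over 0.1). Krt10, Krt77 and Krt80 were highest in replicate 1 of every population, and the main fit held no replicate term. With a replicate block the adjusted p of Krt10 in RFP+ MHCIIlo against RFP+ MHCIIhi went from 7.4e-07 to 1.4e-09. That of Krt9 in RFP+ against RFP- MHCIIlo went the other way, from 0.034 to 0.044. A replicate block changed the call in 1 of the printed tests (Krt14 in RFP+ MHCIIlo against RFP+ MHCIIhi gave -0.26 (adjusted p = 0.025)) and moved counts of keratins called by at most 1. Keratins with few reads in RFP- MHCIIlo (Krt34, Krt73, Krt28, Krt39) allow bounds or wide intervals only.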
